A study of Oryza sativa Japonica Group with 6 samples.

Results

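Shoots of rice seedlings held at 11 °C for 24 h were compared with shoots held at 13 °C for the same time, to describe what separates 2 chilling temperatures that lie close together. The plants were 2-week-old seedlings of the japonica cultivar Lijiangxintuanheigu (LTH), and RNA came from the stems and leaves above ground. There were 2 libraries at 11 °C and 2 at 13 °C, out of 6 in the series. The other 2 came from seedlings kept at 25 °C, which entered the model only to estimate the spread and are given here as a further level. All 3 groups share cultivar, age, tissue and duration, no transgene or chemical was applied according to the labels, and the hour of collection is not given. The genes described are the 19429 loci, of 55800 in the table, whose identifier is written in lower case after the species letter (LOC_Os) and that reached at least 1 RPKM in at least 2 of the 6 libraries. RPKM is a read count scaled by gene length and by the number of mapped reads. The labels call the libraries biological replicates without saying whether each is 1 plant or a pool, so p-values measure the spread between 2 samples per temperature.

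Rice is a chilling-sensitive cereal of warm origin, and seedlings lose turgor, roll their leaves and slow their growth well above freezing. In plants, cold is read within minutes through calcium signals and ICE1-type transcription factors, which switch on the DREB1 (CBF) activators and, through them, protective proteins. Later effects of cold reach photosynthesis, carbohydrate storage, water channels, protein synthesis and the circadian clock, whose parts are described below in turn.

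Recovered library totals were 17020978 and 18754726 reads at 11 °C, against 16959400 and 18742384 reads at 13 °C and 15964798 and 18351742 reads at 25 °C. At these depths 1 read on a gene of 1 kb equals 0.0533 to 0.0626 RPKM, and 16476 to 18083 loci per library reached 1 RPKM. Markers of the sampled tissue were abundant: 4 Rubisco small subunit loci summed to 5909 and 4640 RPKM at 11 °C, against 16141 and 15347 RPKM at 13 °C. Of the secondary-wall cellulose synthases of stems, OsCESA4, OsCESA7 and OsCESA9 were all below 0.3 RPKM in every library, so that the stem part of the sample is not marked by them. The root marker OsLsi1, a silicon channel, had 0.814 and 0.668 RPKM at 11 °C, against 11.9 and 10.9 RPKM at 13 °C and 18.1 and 12.9 RPKM at 25 °C. OsLsi2, the other root marker, was not analysed here. The 5 seed glutelin loci summed to 8.58 and 14 RPKM at 11 °C, against 9.03 and 13.2 RPKM at 13 °C. Loci of organelle type carry plastid or mitochondrial sequence. Among loci whose reads could be recovered, their share of reads was 3.74% and 1.16% in the 11 °C libraries. In those of 13 °C it was 5.36% and 0.112%, and in those of 25 °C 1.73% and 0.0502%. Over all LOC_Os loci, their share of the summed RPKM was 13.4% and 3.91% at 11 °C. At 13 °C this RPKM share was 12.4% and 0.295%, and at 25 °C 5.91% and 0.115%. Both shares were higher in replicate 1 than in replicate 2 at all 3 temperatures, so each plastid-related list below is given without organelle-type loci. In whole tissue, fewer cells of a type and less RNA per cell cannot be told apart.

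A step of 2 degrees separated a large part of the measured transcriptome. Of 19429 tested genes, 35.5% were called between 11 and 13 °C at a Benjamini-Hochberg adjusted p below 0.05 (limma on log2(RPKM + 1)), 3358 of them higher at 11 °C (17.3%) and 3536 lower (18.2%). At least 2-fold differences on that scale were found for 2342 higher and 2411 lower genes, at least 4-fold for 556 and 565, and at least 16-fold for 34 and 43. The median difference over all genes was -0.02, a value that RPKM scaling to each library total largely sets. Libraries of 1 temperature differed by a median of 0.3 log2 units per gene, at each of the 3 temperatures. The 11 °C library differed from the 13 °C library of the same replicate number by 0.54 in replicate 1 and 0.59 in replicate 2, against 0.73 and 0.78 for 11 and 25 °C and 0.66 and 0.65 for 13 and 25 °C. All 6894 called genes had the same sign in both replicate numbers, as had 89.5% of all genes. In each of the 6 fits that leave out 1 library, 1647 of the higher and 1668 of the lower genes stayed called in the same direction. Without replicate 2 at 11 °C, 1801 genes were higher and 2323 lower, 1825 and 2734 with replicate 1 of 13 °C left out, 2694 and 1998 with replicate 1 of 11 °C left out, and 2444 and 1853 with replicate 2 of 13 °C left out.

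**Figure D1:**
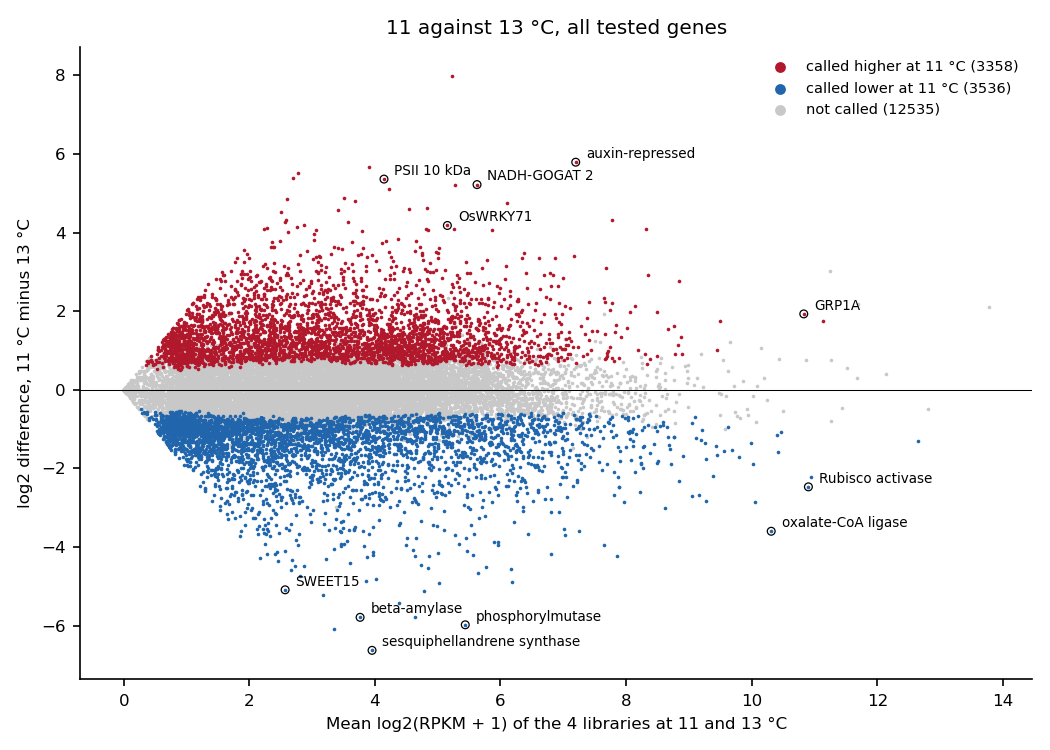
Each point is 1 of the 19429 tested genes, placed by its mean log2(RPKM + 1) over the 4 libraries at 11 and 13 °C (x axis) and its log2 difference, 11 °C minus 13 °C (y axis). Red points are the 3358 genes called higher at 11 °C, blue points the 3536 called lower and grey points the rest, and called genes occur at all levels of expression in both directions.

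For many called genes, the difference between the 2 cold temperatures was not a step further along the way from 25 °C. Among the 3358 genes higher at 11 °C, the mean at 25 °C lay below both cold means for 1486 (44.3%), between them for 1331 (39.6%) and above both for 541 (16.1%). Among the 3536 genes lower at 11 °C, it lay above both for 971 (27.5%), between them for 1489 (42.1%) and below both for 1076 (30.4%). For 2565 of these lower genes (72.5%) the mean at 13 °C was therefore the highest of the 3, and for 2197 of them both 13 °C libraries exceeded all other 4. Of the higher genes, 2571 had both 11 °C libraries above all other 4. These orders are a description, since the 25 °C libraries were not tested against either cold temperature here. The genes were chosen by their 11 and 13 °C values, which by itself favours a cold mean as the highest or lowest. The share to be expected from that choice was not computed.

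**Figure D2:**
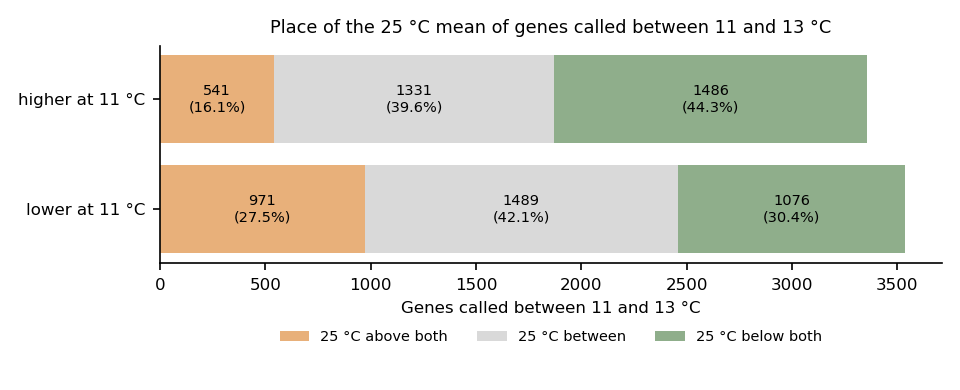
Bars count the genes called between 11 and 13 °C (x axis), split by whether the mean at 25 °C lies above both cold means, between them or below both. A level at 25 °C between those of the 2 cold temperatures accounts for 39.6% of the genes higher and 42.1% of those lower at 11 °C.

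The genes that were furthest above their 13 °C level at 11 °C included, among genes with a description, a dormancy-associated gene and several metabolic enzymes. LOC_Os11g44810 (chromosome 11, 27116364 to 27118009), described as an auxin-repressed protein of the dormancy-associated kind, had 1365 and 870 RPKM at 11 °C, against 21.7 and 16.2 RPKM at 13 °C. The 25 °C libraries had 843 and 661 RPKM, so this transcript was scarce at 13 °C alone, with a log2 difference of 5.79 ± 0.30 (limma SE, adjusted p = 4.62e-05). LOC_Os09g32290 (chromosome 9, 19272307 to 19275775), a probable sarcosine oxidase, a flavoenzyme of amine breakdown, had 104 and 109 RPKM at 11 °C, against 1.15 and 1.04 RPKM at 13 °C, a ratio of means of 97.1. Glutamate synthase 2 (LOC_Os05g48200, chromosome 5, 27622654 to 27636451), the NADH-dependent enzyme that passes glutamine nitrogen to glutamate, had 249 and 362 RPKM at 11 °C, against 6.72 and 7.5 RPKM at 13 °C. Both enzymes were also low at 25 °C, with 2.68 and 1.13 RPKM for the oxidase and 3.5 and 4.01 RPKM for the synthase.

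Other transcripts of this group were also far lower at 13 °C than at 11 °C. The photosystem II 10 kDa polypeptide (LOC_Os07g05360, chromosome 7, 2453960 to 2456611), an extrinsic subunit of the water-splitting complex, had 132 and 95.6 RPKM at 11 °C, against 1.76 and 1.76 RPKM at 13 °C. Its level at 25 °C was 1446 and 1677 RPKM, so that the order of the temperatures was 13, 11, 25. A universal stress protein A-like gene (LOC_Os05g28740) had 238 and 232 RPKM at 11 °C, against 5.93 and 4.89 RPKM at 13 °C and 224 and 282 RPKM at 25 °C. The 11 and 25 °C values of this gene overlapped, while 13 °C stood apart. The isoflavone 2'-hydroxylase-type cytochrome P450 LOC_Os03g55230, whose relatives act in legume phytoalexin synthesis, had 38.9 and 53.3 RPKM at 11 °C, against 0 and 0.0328 RPKM at 13 °C, where the second value is 1 read. The remaining members of the 10 largest rises among described genes with a mean of at least 10 RPKM included a xyloglucan endotransglucosylase/hydrolase (LOC_Os08g14200, 4.87 ± 0.31), which cuts and rejoins wall polymers. The others were crocetin glucosyltransferase 2 (LOC_Os04g12960, 4.60 ± 0.29), a gene described as ubiquitin ligase XB3 (LOC_Os03g16780, 4.57 ± 0.30) and a B3-domain protein (LOC_Os08g30500, 4.53 ± 0.30). The XB3 description is that of a protein acting with the immune receptor XA21, and whether this locus encodes that protein was not tested.

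Terpene synthesis and starch and sugar metabolism led the opposite end. The beta-sesquiphellandrene synthase gene LOC_Os08g04500 (chromosome 8, 2210021 to 2213896), which makes a volatile sesquiterpene, had 0.469 and 0.651 RPKM at 11 °C, against 125 and 188 RPKM at 13 °C and 80 and 88.7 RPKM at 25 °C. Its log2 difference of -6.63 ± 0.25 was the largest fall of any tested gene (adjusted p = 4.62e-05). Farnesyl pyrophosphate synthase 2 (LOC_Os04g56230, chromosome 4, 33524734 to 33528458), which makes the precursor of sesquiterpenes, had 4.37 and 3.03 RPKM at 11 °C, against 140 and 188 RPKM at 13 °C and 172 and 200 RPKM at 25 °C. Both steps of this route were thus low at 11 °C and close to or above their 25 °C level at 13 °C. A gene described as carboxyvinyl-carboxyphosphonate phosphorylmutase (LOC_Os12g08760, chromosome 12, 4499736 to 4503990) had 5.04 and 3.93 RPKM at 11 °C, against 335 and 353 RPKM at 13 °C and 1350 and 1153 RPKM at 25 °C. It followed the temperature in order, with a ratio of 76.6 between the means at 13 and 11 °C.

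Several of the largest falls concerned sugars and phosphate. A beta-amylase (LOC_Os07g35880, chromosome 7, 21471055 to 21473327), which splits maltose from starch, had 0.684 and 0.976 RPKM at 11 °C, against 76 and 132 RPKM at 13 °C and 2.43 and 4.38 RPKM at 25 °C. Sucrose-phosphatase 1 (LOC_Os01g27880), the last step of sucrose synthesis, had 2.08 and 2.32 RPKM at 11 °C, against 123 and 150 RPKM at 13 °C and 14.3 and 12.5 RPKM at 25 °C. SWEET15 (LOC_Os02g30910), a sugar exporter of the plasma membrane, had 0 and 0.034 RPKM at 11 °C, against 28.7 and 39.5 RPKM at 13 °C, and 0 and 0.0348 RPKM at 25 °C. Each nonzero value outside 13 °C was 1 read for this gene, so its transcript was hardly measured at the other temperatures. An SPX-domain membrane protein (LOC_Os02g45520), a family that senses and moves phosphate, had 11.1 and 13.7 RPKM at 11 °C, against 332 and 476 RPKM at 13 °C. The other largest falls among described genes were those of a chloroplast folate-biopterin transporter (LOC_Os07g24230, -5.22 ± 0.23), the large subunit of ADP-glucose pyrophosphorylase (LOC_Os05g50380, -4.91 ± 0.34) and a gene matching the uncharacterized protein MJ1232 (LOC_Os04g05010, -4.86 ± 0.28).

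**Figure D3:**
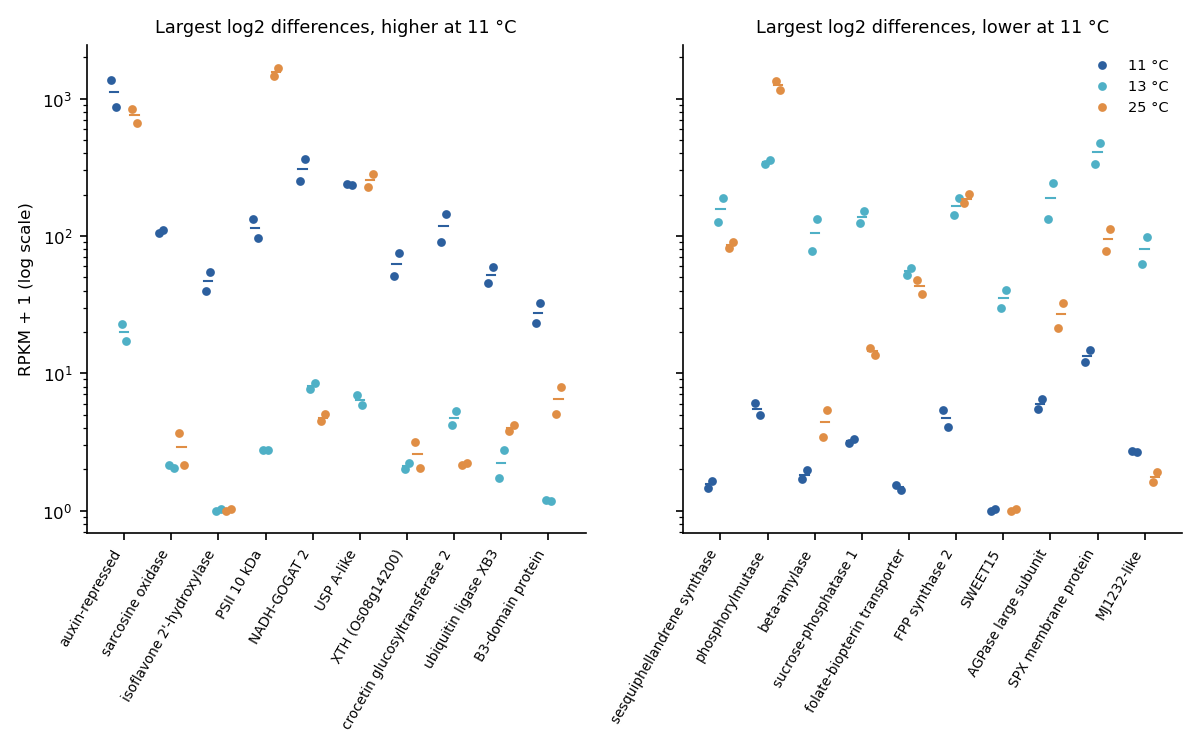
Points are single libraries at 11, 13 and 25 °C and short lines their means, as RPKM + 1 on a log axis, for the 10 described genes with the largest positive (left) and negative (right) log2 differences between 11 and 13 °C. No 11 °C library overlaps a 13 °C library for any of the 20 genes, which follows from their choice by size of difference. Of all 19429 tested genes, 6381 lay higher and 6897 lower at 11 °C without overlap. SWEET15 stands at the foot of the axis at both 11 and 25 °C.

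By absolute level, the cold temperatures differed most in a few very abundant transcripts. The glycine-rich RNA-binding protein GRP1A (LOC_Os03g46770), a cold-responsive RNA chaperone type known in Arabidopsis as part of a clock-driven loop, had 3298 and 3824 RPKM at 11 °C, against 989 and 877 RPKM at 13 °C (1.93 ± 0.28, adjusted p = 0.00155). The 29 kDa ribonucleoprotein B (LOC_Os07g43810), which binds chloroplast RNA, had 1104 and 1295 RPKM at 11 °C, against 160 and 193 RPKM at 13 °C and 4.15 and 7.7 RPKM at 25 °C. Its level thus grew at each step of cooling. A light-regulated protein (LOC_Os01g01340) had 4591 and 3680 RPKM at 11 °C, against 1614 and 936 RPKM at 13 °C, but was not called without replicate 2 at 13 °C. A second universal stress protein A-like gene (LOC_Os12g36640) had 1355 and 1317 RPKM at 11 °C, against 434 and 356 RPKM at 13 °C, and was not called without either 11 °C library or without replicate 2 at 13 °C.

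On the other side stood carbon fixation and oxalate breakdown. Oxalate-CoA ligase (LOC_Os04g58710, chromosome 4, 34908441 to 34910661), which starts oxalate breakdown, had 397 and 334 RPKM at 11 °C, against 4451 and 4386 RPKM at 13 °C and 2087 and 1510 RPKM at 25 °C. Rubisco activase (LOC_Os11g47970, chromosome 11, 28934294 to 28936340), which frees the active sites of the carbon-fixing enzyme, had 1015 and 650 RPKM at 11 °C, against 4147 and 4905 RPKM at 13 °C. The ratio of means was 5.44, inside a much wider range that reached 27017 and 36629 RPKM at 25 °C. Ferredoxin-1 (LOC_Os08g01380), which carries electrons from photosystem I, had 513 and 300 RPKM at 11 °C, against 2428 and 3321 RPKM at 13 °C. The Rubisco small subunit gene LOC_Os12g17600 had 4757 and 3490 RPKM at 11 °C, against 10523 and 9566 RPKM at 13 °C (-1.30 ± 0.39, adjusted p = 0.0349). That call was lost under quantile and TMM-type scaling, with no filter on low values and without any 1 of the 4 cold libraries. A second small subunit gene (LOC_Os12g19381) had 918 and 921 RPKM at 11 °C, against 4224 and 4299 RPKM at 13 °C, and was called in each of those fits. The activase call was lost with no filter on low values. Reads of these near-identical small subunit genes may have been shared between loci.

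Among genes of the photosynthetic apparatus, more were lower than higher at 11 °C. Of 33 photosystem and light-harvesting loci that are not of organelle type, 16 were lower (48.5%, against 18.2% of all genes), 2 higher and 15 not called, with a median of -0.88 against -0.02 over all genes. The median was -0.72 within replicate 1 and -1.01 within replicate 2. Chlorophyll a-b binding protein 1 (LOC_Os09g17740), a light-harvesting antenna protein, had 212 and 201 RPKM at 11 °C, against 1091 and 1695 RPKM at 13 °C. PSB28 (LOC_Os01g71190), an assembly factor of photosystem II, had 22.6 and 26.7 RPKM at 11 °C, against 122 and 164 RPKM at 13 °C. The higher members included the 10 kDa polypeptide described above, whose 25 °C level was far above either cold level. With the 16 organelle-type members the counts were 16 lower and 4 higher of 49, and the median -0.23. The share of organelle-type reads given above differed more between replicate numbers than between temperatures, and its part in these levels was not tested. Leaving out 1 cold library at a time left 9 to 11 lower members of the 33.

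Calvin cycle and photorespiration genes also had more members lower than higher. Of 23 loci not of organelle type, 11 were lower (47.8%), 2 higher (8.7%) and 10 not called, with a median of -0.82. Among all genes 18.2% were lower and 17.3% higher. Chloroplast glyceraldehyde-3-phosphate dehydrogenase A (LOC_Os04g38600), which reduces the first product of carbon fixation, had 258 and 207 RPKM at 11 °C, against 1516 and 1791 RPKM at 13 °C and 1017 and 1348 RPKM at 25 °C. For 9 of the 11 lower genes the 13 °C mean was the highest of the 3, against 72.5% of all genes lower at 11 °C. The summed level of the 23 loci was 10977 and 9222 RPKM at 11 °C, against 29034 and 30145 RPKM at 13 °C. It was highest at 25 °C, at 42359 and 55283 RPKM. Most of that 25 °C sum was Rubisco activase, whose level is given above, so its order does not describe the list as a whole. The small subunit LOC_Os12g19470 fell by 2.67 on the log2 scale, and the minor one LOC_Os02g05830 was 1.38 ± 0.27 higher, at 5.79 and 6.43 RPKM against 1.48 and 2 RPKM. Peroxisomal glycolate oxidase GLO4 (LOC_Os07g42440) was higher by 1.02 ± 0.23, a call lost when either 11 °C library or replicate 1 of 13 °C was left out. Of 27 chlorophyll synthesis genes, 7 were lower (25.9%) and 2 higher (7.41%). The magnesium-protoporphyrin monomethyl ester cyclase (LOC_Os01g17170) had 47.5 and 49.2 RPKM at 11 °C, against 167 and 217 RPKM at 13 °C. Leaving out a cold library left 7 to 9 lower Calvin cycle genes and 3 to 4 lower chlorophyll synthesis genes. Reads could be recovered for 14 of the 27 Calvin cycle and photorespiration loci, of which both limma on RPKM and limma-voom called 2 higher and 2 lower, so the other 9 lower calls were not covered by limma-voom.

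Starch enzymes included many called genes. Of 35 tested loci, 19 were lower at 11 °C (54.3%, against 18.2% of all genes), 6 higher and 10 not called, with a median of -1.01. All 35 together summed to 777 and 948 RPKM at 11 °C, against 2204 and 3295 RPKM at 13 °C and 944 and 1168 RPKM at 25 °C. Of the 19 lower genes, 14 had their highest mean at 13 °C, a share close to the 72.5% of all genes lower at 11 °C. These 14 included the beta-amylase and the ADP-glucose pyrophosphorylase large subunit named above. ADP-glucose pyrophosphorylase makes the sugar donor for starch, and the gene LOC_Os05g50380 had 4.46 and 5.45 RPKM at 11 °C, against 131 and 242 RPKM at 13 °C and 20.4 and 31.5 RPKM at 25 °C. The list holds enzymes of both synthesis and breakdown. Another beta-amylase (LOC_Os01g70700) went the other way, with 8.07 and 11.7 RPKM at 11 °C, against 1.03 and 1.09 RPKM at 13 °C. Isoamylase 1 (LOC_Os08g40930), a debranching enzyme of starch synthesis, had 56 and 75.9 RPKM at 11 °C, against 18.3 and 28.5 RPKM at 13 °C. Leaving out 1 library at a time left 15 to 19 lower members and 3 to 7 higher ones.

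Of 63 sucrose and sugar transport genes, 14 were higher (22.2%) and 15 lower (23.8%), with a median of -0.03, near the 17.3%, 18.2% and -0.02 of all genes. Sucrose synthase 4 (LOC_Os03g22120), which opens sucrose for use in sink cells, had 78.1 and 124 RPKM at 11 °C, against 8.93 and 13.7 RPKM at 13 °C. The putative exporter SWEET7d (LOC_Os09g08490) had 29.5 and 41.1 RPKM at 11 °C, against 4.01 and 4.54 RPKM at 13 °C. This pair of SWEET genes thus lay at opposite ends of the comparison. Leaving out 1 library at a time left 8 to 15 higher and 12 to 16 lower members of the list. Trehalose and raffinose enzymes, which make signalling and protective sugars, had 9 higher (45%) and 6 lower (30%) of 20. All 9 higher genes had their lowest mean at 13 °C, against 55.7% of all genes higher at 11 °C. Trehalose-phosphate phosphatase 6 (LOC_Os08g31630), which removes the signal trehalose 6-phosphate, had 1.72 and 2.54 RPKM at 11 °C, against 37.7 and 50.7 RPKM at 13 °C. Trehalose-phosphate synthase 11 (LOC_Os02g54820), which makes that signal sugar or regulates its making, had 13.8 and 15.1 RPKM at 11 °C, against 3.02 and 3.53 RPKM at 13 °C and 43.3 and 39.8 RPKM at 25 °C. The galactinol-sucrose galactosyltransferases, which make raffinose, differed in direction between LOC_Os08g38710 (2.12 ± 0.28) and LOC_Os07g10840 (-2.18 ± 0.22). Leaving out 1 library at a time left 5 to 8 higher and 3 to 6 lower members.

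**Figure D4:**
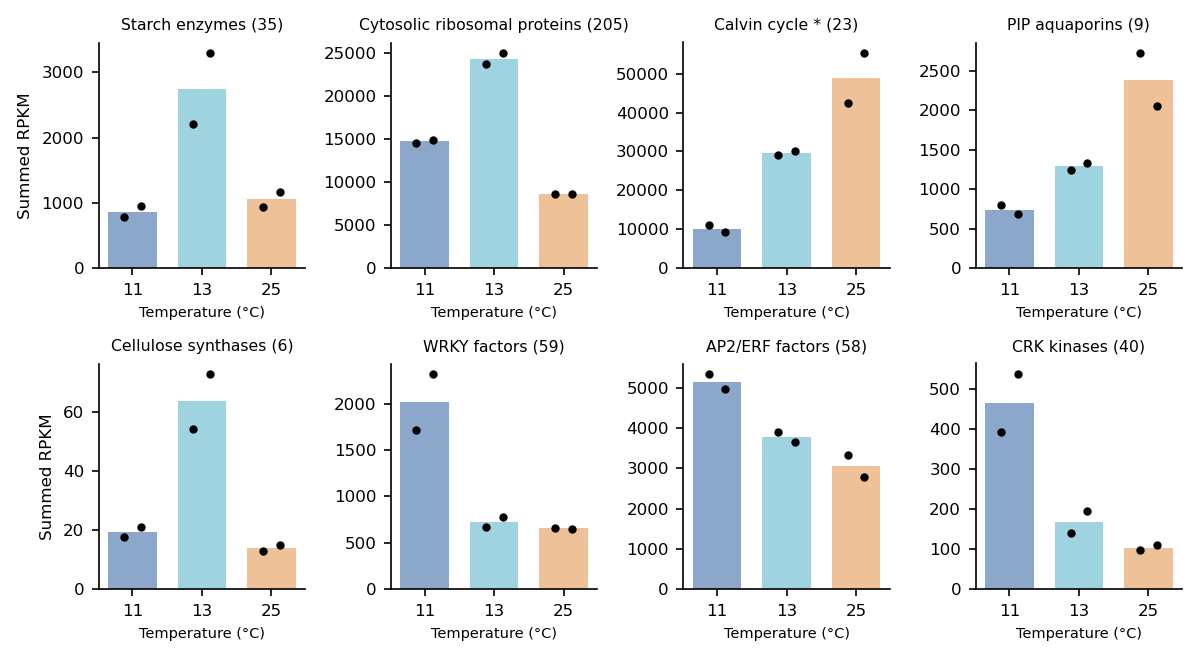
Bars are mean summed RPKM and points the 2 libraries at 11, 13 and 25 °C, for 8 groups with the number of tested loci in brackets; a star marks a list without organelle-type loci. Starch enzymes, cellulose synthases and cytosolic ribosomal proteins are highest at 13 °C, and WRKY factors and cysteine-rich receptor-like kinases (CRK) at 11 °C.

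Cytosolic ribosomal proteins, the protein part of the translating ribosome, were called almost only in 1 direction. Of 205 tested loci, 118 were lower at 11 °C (57.6%), 2 higher and 85 not called, with a median of -0.73, which was -0.73 within replicate 1 and -0.75 within replicate 2. Their summed level was 14620 and 14933 RPKM at 11 °C, against 23751 and 25013 RPKM at 13 °C and 8605 and 8663 RPKM at 25 °C. For 116 of the 118 lower genes the 13 °C mean was the highest of the 3 temperatures, against 72.5% of all genes lower at 11 °C. The differences were small for single genes: the largest were those of the acidic stalk protein P2A (LOC_Os02g32760, -2.30 ± 0.31) and L36a (LOC_Os07g33915, -2.09 ± 0.21). P2A had 3.19 and 2.08 RPKM at 11 °C, against 16.3 and 17 RPKM at 13 °C. The higher members, L13a (LOC_Os11g23880) and S9-2 (LOC_Os03g26229), lost their calls when replicate 2 of 11 °C or replicate 1 of 13 °C was left out. The count of calls rests on all libraries, since 36 lower members were called without replicate 2 at 11 °C, 42 without replicate 1 at 11 °C, 44 without replicate 1 at 13 °C and 31 with replicate 2 of 13 °C left out, while the median lay between -0.71 and -0.79.

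Other parts of protein synthesis had medians closer to that of all genes. Of 94 plastid and mitochondrial ribosomal protein loci not of organelle type, 19 were lower (20.2%) and 2 higher (2.13%), with a median of -0.42. Of 72 translation factors not of organelle type, 16 were lower (22.2%) and 1 higher (1.39%), with a median of -0.37. Plastid elongation factor G-2 (LOC_Os04g45490) led the lower ones at -1.59 ± 0.24. Leaving out a cold library left 5 to 7 lower translation factors and 7 to 11 lower organellar ribosomal proteins. Ribosome biogenesis and nucleolar proteins, which build the subunits, had 4 higher (6.35%) and 3 lower (4.76%) of 63 and a median of 0.05. Aminoacyl-tRNA ligases, which charge tRNAs, had 4 higher (7.27%) and 1 lower (1.82%) of 55 and a median of 0.05. Glutamine-tRNA ligase (LOC_Os01g09000) had 101 and 83.7 RPKM at 11 °C, against 30.4 and 21.9 RPKM at 13 °C. Proteasome subunits had 4 higher (7.41%) and 5 lower (9.26%) of 54. Splicing factors had 10 higher (8.77%) and 11 lower (9.65%) of 114. From ribosome biogenesis to splicing, all these shares were below the 17.3% higher and 18.2% lower of all genes. The serine/arginine-rich factor RS41 (LOC_Os02g03040) had 257 and 307 RPKM at 11 °C, against 29.3 and 45.7 RPKM at 13 °C. Without 1 library at a time there were 0 to 3 higher biogenesis proteins, 1 to 4 higher tRNA ligases, 0 to 6 lower proteasome subunits, and 3 to 10 higher and 3 to 11 lower splicing factors.

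**Figure D5:**
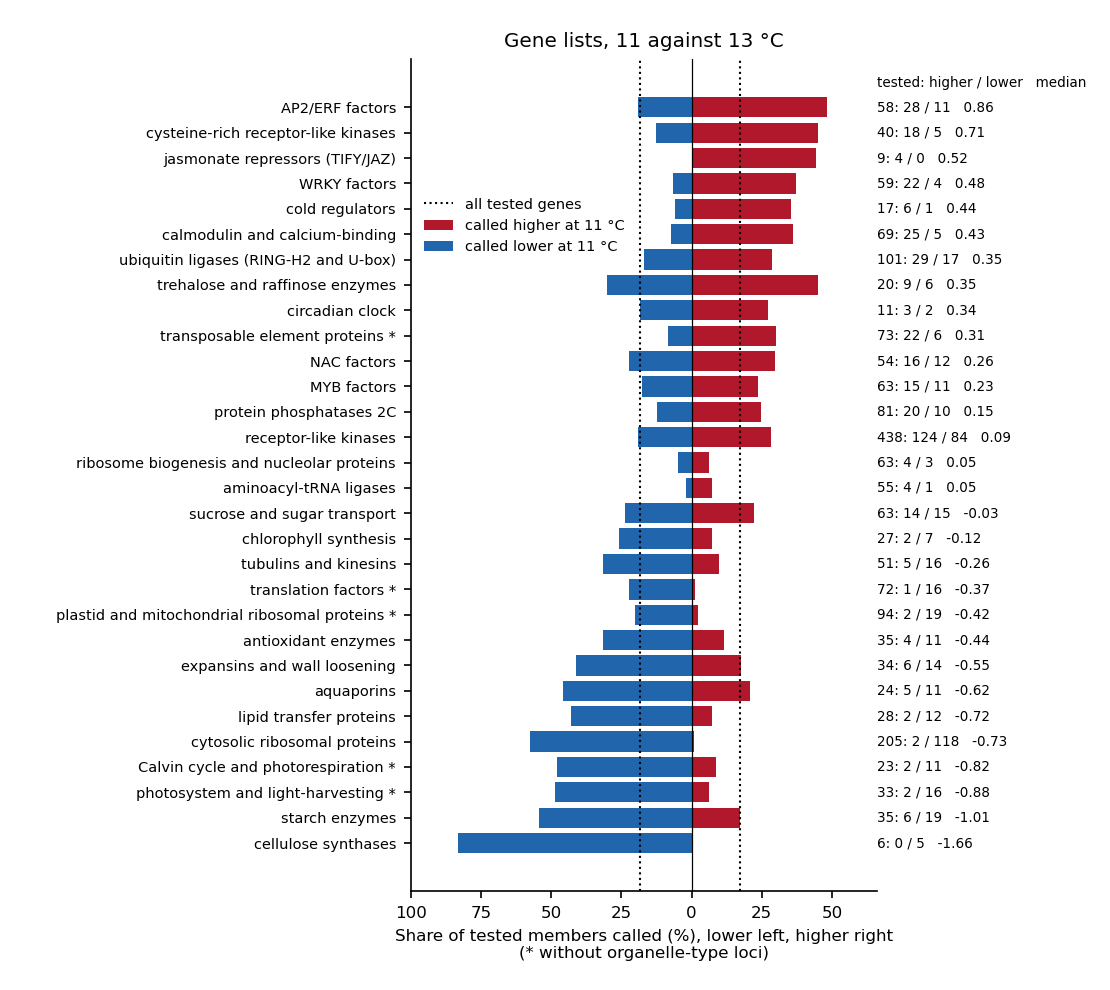
Bars give, for 30 gene lists, the percentage of tested members called higher (red, to the right) and lower (blue, to the left) at 11 than at 13 °C, with counts and median log2 difference at the right and a star for lists without organelle-type loci. Dotted lines mark 17.3% higher and 18.2% lower over all tested genes, and AP2/ERF factors at the top and cellulose synthases at the foot have the largest medians in each direction.

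Most water channel genes that differed were lower at 11 °C. Of 24 aquaporin loci, 11 were lower (45.8%), 5 higher (20.8%) and 8 not called, against 18.2% lower and 17.3% higher among all genes. Of 9 plasma membrane (PIP) members 7 were lower and 2 higher. The vacuolar channel TIP1-1 (LOC_Os03g05290) had 8.69 and 9.08 RPKM at 11 °C, against 207 and 301 RPKM at 13 °C and 159 and 250 RPKM at 25 °C. PIP1-3 (LOC_Os02g57720) had 3.75 and 1.93 RPKM at 11 °C, against 64.5 and 64.6 RPKM at 13 °C and 43.6 and 23.8 RPKM at 25 °C. For both genes the 11 °C libraries lay below all other 4. PIP2-6 (LOC_Os04g16450) was higher, with 6.82 and 5.66 RPKM at 11 °C, against 1.88 and 1.38 RPKM at 13 °C. The count of higher members was 2 when any 1 cold library was left out. The root marker OsLsi1 belongs to the same protein family and was lower by a log2 difference of -2.83 ± 0.26 (adjusted p = 0.000236), and the part of root tissue in these levels was not tested.

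Among genes of wall building and wall loosening, more were lower than higher at 11 °C. Of 6 cellulose synthase catalytic subunits, 5 were lower and 1 was not called, with a median of -1.66 and a summed level of 17.7 and 21 RPKM at 11 °C, against 54.4 and 72.8 RPKM at 13 °C and 12.8 and 15.1 RPKM at 25 °C. OsCESA5 (LOC_Os03g62090) had 2.96 and 3.57 RPKM at 11 °C, against 13.4 and 17.4 RPKM at 13 °C. Of 34 expansins and other wall-loosening proteins, 14 were lower (41.2%), 6 higher (17.6%) and 14 not called. Among all genes 18.2% were lower and 17.3% higher. A xyloglucan endotransglucosylase/hydrolase (LOC_Os06g48180) had 30.7 and 39.9 RPKM at 11 °C, against 420 and 522 RPKM at 13 °C and 25 and 34 RPKM at 25 °C. Another member of that enzyme family, LOC_Os08g14200, was among the 10 largest rises, with 50 and 73.5 RPKM at 11 °C, against 1 and 1.23 RPKM at 13 °C. Of 28 lipid transfer proteins, which carry lipids to cell surfaces, 12 were lower (42.9%) and 2 higher (7.14%). Of 51 tubulins and kinesins, 16 were lower (31.4%) and 5 higher (9.8%). All 16 had their highest mean at 13 °C, against 72.5% of all genes lower at 11 °C. The tubulin beta-6 gene LOC_Os05g34170 had 1.27 and 1.15 RPKM at 11 °C, against 18.2 and 20.1 RPKM at 13 °C. Leaving out 1 library at a time left 9 to 16 lower and 3 to 6 higher members of this list. No cellulose synthase was called higher by limma, by limma-voom on the recovered reads or at an unadjusted p below 0.05. OsLsi1 was also lower at 11 than at 13 °C, but its highest level was at 25 °C (18.1 and 12.9 RPKM, against 11.9 and 10.9 RPKM at 13 °C). All 5 lower cellulose synthases had their highest mean at 13 °C. The part of root tissue in these levels was not tested.

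Genes of the cell cycle were not uniformly lower. Of 45 DNA replication proteins, 10 were lower (22.2%) and 5 higher (11.1%), against 18.2% and 17.3% of all genes. Among 36 histones 7 were lower (19.4%) and 8 higher (22.2%). Among 56 cyclins and division kinases 8 were lower (14.3%) and 16 higher (28.6%). Histone H2B.10 (LOC_Os01g05630) had 136 and 140 RPKM at 11 °C, against 44.6 and 44.3 RPKM at 13 °C, while histone H2A.5 (LOC_Os03g17100) had 5.26 and 4.26 RPKM at 11 °C, against 41.5 and 34.3 RPKM at 13 °C. The kinase inhibitor EL2 (LOC_Os03g01740), which slows the rice cell cycle under stress, had 31.3 and 40.1 RPKM at 11 °C, against 4.84 and 4.76 RPKM at 13 °C. Cyclin-D3-1 (LOC_Os06g11410), which promotes entry into division, was low and lower still at 11 °C, at 0.311 and 0.471 RPKM against 2.99 and 2.73 RPKM at 13 °C. Leaving out 1 library at a time left 3 to 10 lower and 1 to 5 higher replication proteins, 3 to 7 lower and 3 to 11 higher histones, and 3 to 8 lower and 9 to 16 higher cyclins and kinases.

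Among the known cold regulators, 6 of 17 tested genes were higher at 11 °C (35.3%), 1 was lower (5.88%) and 10 were not called. Among all genes 17.3% were higher and 18.2% lower. OsDREB1B (LOC_Os09g35010, chromosome 9, 20395224 to 20396205), a CBF-type activator, had 30.4 and 38.9 RPKM at 11 °C, against 2.28 and 3.31 RPKM at 13 °C and 0.0638 and 0.277 RPKM at 25 °C. Its level grew at each step of cooling, by 3.23 ± 0.27 between 13 and 11 °C (adjusted p = 0.000182). OsWRKY71 (LOC_Os02g08440), a W-box-binding regulator of defence that also acts in cold, had 126 and 180 RPKM at 11 °C, against 6.3 and 8.58 RPKM at 13 °C. Its 25 °C libraries had 6.78 and 10.6 RPKM, so 13 and 25 °C overlapped for this gene. OsMYB4 (LOC_Os04g43680), which raises chilling tolerance when overexpressed, had 29.1 and 36.8 RPKM at 11 °C, against 3.66 and 3.78 RPKM at 13 °C.

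The other cold regulators differed less or not detectably. SNAC1 (LOC_Os03g60080), a NAC factor of stomatal closure, had 230 and 261 RPKM at 11 °C, against 48.5 and 48.3 RPKM at 13 °C and 159 and 112 RPKM at 25 °C. The zinc finger factor ZFP182 (LOC_Os03g60560) was higher by 1.29 ± 0.21 and OsDREB1A (LOC_Os09g35030) by 1.27 ± 0.27. The OsDREB1A call was lost when replicate 2 of 11 °C or replicate 1 of 13 °C was left out. OsICE1 (LOC_Os11g32100), a bHLH activator upstream of DREB1 genes, had 1.34 and 2.06 RPKM at 11 °C, against 9.54 and 10.6 RPKM at 13 °C and 0.159 and 0.0554 RPKM at 25 °C. It was thus highest at the milder chilling temperature. OsDREB2A, OsDREB2B, OsDREB1G, OsICE2, OsMYB3R-2, OsMYBS3, OsNAC5, OsWRKY76, SNAC2 and the chilling-tolerance gene COLD1 were not called, with log2 differences between -0.58 and 0.53. OsDREB1C, OsDREB1E, OsDREB1H and ZFP252 did not pass the filter on low values, and OsDREB1F was not analysed here.

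Stress-related transcription factor families were higher more often than lower at 11 °C. Of 58 AP2/ERF factors, 28 were higher (48.3%, against 17.3% of all genes), 11 lower and 19 not called, with a median of 0.86. ERF008 (LOC_Os06g07030) had 32.4 and 30.6 RPKM at 11 °C, against 0.771 and 1.43 RPKM at 13 °C and 82.9 and 59.7 RPKM at 25 °C. ERF1B (LOC_Os09g39850), an ethylene response factor, had 18 and 18 RPKM at 11 °C, against 0.181 and 0.656 RPKM at 13 °C. In the other direction ERF034 (LOC_Os04g46440) had 0.67 and 0.811 RPKM at 11 °C, against 22.2 and 29.7 RPKM at 13 °C, and at most 1 read at 25 °C. Of 59 WRKY factors, 22 were higher (37.3%) and 4 lower (6.78%, against 18.2% of all genes), with a median of 0.48. WRKY33 (LOC_Os01g61080), a defence regulator, had 128 and 191 RPKM at 11 °C, against 7.39 and 9.33 RPKM at 13 °C. The summed level of the 59 factors was 1717 and 2319 RPKM at 11 °C, against 667 and 782 RPKM at 13 °C and 659 and 651 RPKM at 25 °C. Leaving out 1 library at a time left 15 to 21 higher WRKY members and 23 to 30 higher AP2/ERF members.

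NAC and MYB factors were more evenly split. Of 54 NAC factors 16 were higher (29.6%) and 12 lower (22.2%), against 17.3% and 18.2% of all genes. NAC29 (LOC_Os12g29330), a senescence regulator in Arabidopsis, had 170 and 240 RPKM at 11 °C, against 19.1 and 25.4 RPKM at 13 °C. NAC45 (LOC_Os10g42130) had 2.71 and 2.67 RPKM at 11 °C, against 39.5 and 46.4 RPKM at 13 °C and 0.0641 and 0.335 RPKM at 25 °C. Of 63 MYB factors 15 were higher (23.8%) and 11 lower (17.5%). Called loci described as MYBAS2 had opposite signs, LOC_Os01g74410 at 3.78 ± 0.32 and LOC_Os12g37970 at -1.80 ± 0.27. Of 60 bHLH and bZIP factors 15 were higher (25%) and 9 lower (15%). The gene bHLH128 (LOC_Os01g67480) had 283 and 345 RPKM at 11 °C, against 37.2 and 44 RPKM at 13 °C. Of 213 zinc finger proteins 44 were higher (20.7%) and 37 lower (17.4%), near the 17.3% and 18.2% of all genes. Leaving out 1 library at a time left 23 to 43 higher and 16 to 36 lower zinc finger proteins, 8 to 15 higher bHLH and bZIP factors and 4 to 10 lower MYB factors.

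Calcium and receptor signalling genes were higher at 11 °C in more cases than lower. Of 69 calmodulins and calcium-binding proteins, which read calcium signals, 25 were higher (36.2%) and 5 lower (7.25%), with a median of 0.43. Among all genes 17.3% were higher and 18.2% lower. The paired loci of CML36 on chromosomes 11 and 12 both rose. LOC_Os11g04560 had 63.5 and 59 RPKM at 11 °C, against 6.59 and 6.79 RPKM at 13 °C, and LOC_Os12g04360 had 27.1 and 27.2 RPKM at 11 °C, against 2.14 and 1.34 RPKM at 13 °C. Calcineurin B-like protein 4 (LOC_Os05g45810), a calcium sensor of salt tolerance in Arabidopsis, had 6.19 and 6.38 RPKM at 11 °C, against 31.6 and 35.5 RPKM at 13 °C. The number of higher members fell to 12 when replicate 2 of 11 °C was left out, and to 13 when replicate 1 of 13 °C was.

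Of 40 cysteine-rich receptor-like kinases, membrane kinases of stress and immune signalling, 18 were higher (45%) and 5 lower, with a median of 0.71. CRK25 (LOC_Os07g35390) had 13.2 and 23.2 RPKM at 11 °C, against 0.421 and 0.572 RPKM at 13 °C and 8.17 and 9.71 RPKM at 25 °C. It lies in a run of 7 neighbouring tested loci on chromosome 7 (21133028 to 21178563), all higher at 11 °C, of which 6 are described as kinases of this family. Reads of such close copies may have been shared between loci. Among 438 receptor-like kinases of all kinds, 124 were higher (28.3%) and 84 lower (19.2%), with a median of 0.09. Without replicate 2 at 11 °C there were 74 and 56, 73 and 72 with replicate 1 of 13 °C left out, 107 and 41 with replicate 1 of 11 °C left out, and 97 and 40 with replicate 2 of 13 °C left out. The receptor kinase described as EFR (LOC_Os08g14940), named for a bacterial-pattern receptor of Arabidopsis, had 0.101 and 0.349 RPKM at 11 °C, against 19.5 and 29.2 RPKM at 13 °C. Of 101 RING-H2 and U-box ubiquitin ligases 29 were higher (28.7%) and 17 lower (16.8%), against 17.3% and 18.2% of all genes. Among 81 protein phosphatases 2C, which include brakes on abscisic acid signalling, 20 were higher (24.7%) and 10 lower (12.3%). Leaving out 1 library at a time left 15 to 29 higher and 7 to 18 lower ubiquitin ligases. The phosphatases were left with 8 to 18 higher and 3 to 9 lower members, and with 8 of each when replicate 1 of 13 °C was left out.

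Hormone genes were called in both directions. Of 9 jasmonate repressors (TIFY/JAZ), 4 were higher and none lower by limma (0 lower also by limma-voom and at an unadjusted p below 0.05, but 1 lower under TMM-type scaling), and TIFY 10B (LOC_Os10g25290) had 51.6 and 59.2 RPKM at 11 °C, against 2.57 and 2.27 RPKM at 13 °C and 1.3 and 1.81 RPKM at 25 °C. TIFY 10A (LOC_Os03g08330) had 18 and 19.6 RPKM at 11 °C, against 1.5 and 1.4 RPKM at 13 °C. Abscisic acid genes were called in both directions. Zeaxanthin epoxidase, an early step of synthesis, was lower at 2 of its 4 loci, with 12.1 and 8.23 RPKM at 11 °C, against 57.5 and 71.9 RPKM at 13 °C for LOC_Os11g03390 and a log2 difference of -2.05 ± 0.24 for LOC_Os12g03070. The 5 hydroxylase loci, whose enzymes break the hormone down, were 2 higher and 3 lower. The gene of 8'-hydroxylase 1 (LOC_Os02g47470) had 66.9 and 73.1 RPKM at 11 °C, against 19.7 and 18.2 RPKM at 13 °C, and a gene of 8'-hydroxylase 3 (LOC_Os03g61980) a difference of 1.21 ± 0.19. A second gene of that description (LOC_Os09g28390) was lower by a difference of -1.73 ± 0.28, with 11.3 and 17.3 RPKM at 11 °C, against 40.8 and 57.9 RPKM at 13 °C. The other lower hydroxylases were LOC_Os08g36860 at -1.68 ± 0.25 and LOC_Os05g01120 at -0.99 ± 0.25, and these 3 lower loci were named after their values were seen. In all, 5 of the 11 abscisic acid genes were lower (45.5%) and 2 higher (18.2%). Of 17 gibberellin enzymes and regulators 5 were lower (29.4%) and 2 higher (11.8%), with a median of -0.03. Gibberellin 20 oxidases, which make active gibberellins, were lower at 2 loci. LOC_Os03g63970 had 0.919 and 0.748 RPKM at 11 °C, against 8.3 and 7.37 RPKM at 13 °C. The higher members were the receptor GID1 (LOC_Os05g33730, 0.67 ± 0.21) and a gibberellin 2-beta-dioxygenase (LOC_Os05g48700, 0.74 ± 0.24). Of 62 auxin response genes 17 were higher (27.4%) and 12 lower (19.4%), against 17.3% and 18.2% of all genes. IAA6 (LOC_Os01g53880) had 72.6 and 98.7 RPKM at 11 °C, against 9.38 and 10 RPKM at 13 °C and 64.9 and 71.7 RPKM at 25 °C. Leaving out 1 library at a time left 8 to 18 higher and 6 to 12 lower auxin response genes.

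Clock genes were called in both directions, beside 17.3% higher and 18.2% lower among all genes. Of 11 tested members, 3 were higher (27.3%), 2 lower (18.2%) and 6 not called, and leaving out 1 library at a time left 1 to 3 higher and 1 to 2 lower. The morning gene OsLHY (LOC_Os08g06110) had 113 and 115 RPKM at 11 °C, against 251 and 386 RPKM at 13 °C and 1654 and 2446 RPKM at 25 °C, a difference between the cold temperatures of -1.44 ± 0.30 that was not called without replicate 2 at 13 °C. The evening gene OsPRR1 had 140 and 185 RPKM at 11 °C, against 71.7 and 89.7 RPKM at 13 °C and 1.36 and 1.27 RPKM at 25 °C, and was not called without replicate 2 at 11 °C or replicate 1 at 13 °C. OsLUX was higher by 0.99 ± 0.31, a call lost without any 1 of the 4 cold libraries, under TMM-type and quantile scaling, with a pseudocount of 0.1 and with no filter on low values. OsELF3-2, an evening-complex subunit, had 54.7 and 53.2 RPKM at 11 °C, against 26.2 and 21.6 RPKM at 13 °C, and the light-sensing F-box gene OsFKF1 had 16.8 and 15.5 RPKM at 11 °C, against 36.4 and 42.9 RPKM at 13 °C. OsGI, OsPRR37, OsPRR59, OsPRR73, OsPRR95 and OsELF3-1 were not called, with differences between 0.13 and 0.58. As the hour of collection is not given, a difference in hour and one in temperature cannot be told apart for these genes.

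Of 76 heat shock proteins and chaperones 17 were higher (22.4%) and 20 lower (26.3%), against 17.3% and 18.2% of all genes. The 23.6 kDa mitochondrial small heat shock protein (LOC_Os02g10710) had 19.6 and 31.4 RPKM at 11 °C, against 2.05 and 3.15 RPKM at 13 °C, and the mitochondrial HSP70 (LOC_Os09g31486) had 56.2 and 74 RPKM at 11 °C, against 9.8 and 10.4 RPKM at 13 °C. The heat stress factor HSFA2b (LOC_Os07g08140) had 0.358 and 0.325 RPKM at 11 °C, against 15.8 and 16.4 RPKM at 13 °C and 0.573 and 0.332 RPKM at 25 °C, so its 13 °C libraries stood apart from the other 4. Of 35 antioxidant enzymes 11 were lower (31.4%) and 4 higher (11.4%). Peroxiredoxin-2E-2 (LOC_Os02g09940), a chloroplast peroxidase, had 2.46 and 2.44 RPKM at 11 °C, against 31.5 and 37.4 RPKM at 13 °C, and cytosolic ascorbate peroxidase 2 (LOC_Os07g49400) had 37.7 and 33.2 RPKM at 11 °C, against 171 and 161 RPKM at 13 °C. Leaving out 1 library at a time left 10 to 18 higher and 10 to 18 lower chaperones, and 1 to 4 higher and 5 to 13 lower antioxidant enzymes.

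Of 51 glutathione S-transferases, which conjugate toxic compounds, 9 were higher (17.6%) and 14 lower (27.5%). Several loci carry the description GSTU6, and their reads may be shared; among them LOC_Os10g38470 had 27 and 23.2 RPKM at 11 °C, against 2.25 and 2.27 RPKM at 13 °C, while LOC_Os10g38710 had 5.35 and 4.58 RPKM at 11 °C, against 144 and 130 RPKM at 13 °C, and LOC_Os10g38730 was lower by a difference of -2.49 ± 0.29. Of 39 class III peroxidases 10 were higher (25.6%) and 11 lower (28.2%), against 17.3% and 18.2% of all genes. Peroxidase 15 (LOC_Os10g02040) had 33.5 and 27.6 RPKM at 11 °C, against 0.889 and 0.57 RPKM at 13 °C and 244 and 184 RPKM at 25 °C, and peroxidase 24 (LOC_Os01g16450) had 1.4 and 2.19 RPKM at 11 °C, against 39.4 and 45.6 RPKM at 13 °C. Alternative oxidases, which let mitochondria respire without making as much ATP, had 2 higher and 2 lower of 6. The ubiquinol oxidase 1a gene LOC_Os04g51150 had 69.1 and 103 RPKM at 11 °C, against 7.26 and 8.04 RPKM at 13 °C and 1.94 and 2.3 RPKM at 25 °C, and its namesake LOC_Os02g47200 had 10.2 and 12.9 RPKM at 11 °C, against 30.6 and 32.1 RPKM at 13 °C. Leaving out 1 library at a time left 5 to 10 higher and 9 to 15 lower transferases and 5 to 14 lower peroxidases.

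Of 68 mineral and nitrogen transporters 12 were higher (17.6%) and 15 lower (22.1%), shares near those of all genes (17.3% and 18.2%). Phosphate transporter 1-1 (LOC_Os03g05620) had 155 and 155 RPKM at 11 °C, against 27.5 and 22.3 RPKM at 13 °C, and phosphate transporter 1-4 (LOC_Os04g10750) had 0.717 and 0.428 RPKM at 11 °C, against 18.6 and 18.6 RPKM at 13 °C. Potassium transporter 1 (LOC_Os04g32920) had 371 and 542 RPKM at 11 °C, against 77.4 and 101 RPKM at 13 °C and 9.6 and 8.48 RPKM at 25 °C, and potassium transporter 27 (LOC_Os03g37830) was lower by -3.06 ± 0.24.

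Of 14 organelle RNA-binding proteins 3 were higher and 3 lower, with 0 to 3 lower when 1 library was left out, and the DAG-type gene LOC_Os08g04450 had 587 and 598 RPKM at 11 °C, against 137 and 130 RPKM at 13 °C and 3.89 and 2 RPKM at 25 °C. Of 8 sigma factors, which guide the plastid RNA polymerase, sigF (LOC_Os08g14450) was higher by 1.38 ± 0.26 and sigE (LOC_Os05g50930) had 51.8 and 63.2 RPKM at 11 °C, against 259 and 286 RPKM at 13 °C. Of 178 pentatricopeptide repeat proteins, which edit and cut organelle RNA, 23 were higher (12.9%) and 26 lower (14.6%). Both shares were below the 17.3% and 18.2% of all genes, while those of the organelle RNA-binding proteins were 21.4% each. Their median was -0.03, and it lay between -0.20 and 0.15 when 1 library was left out. Of 7 thiamine synthesis genes 0 were called between 11 and 13 °C by limma, with 3 higher and 2 lower at an unadjusted p below 0.05, and 1 higher and 2 lower by limma-voom on the recovered reads. Their summed level was 3884 and 3673 RPKM at 11 °C and 2429 and 3018 RPKM at 13 °C, against 25.3 and 38.7 RPKM at 25 °C.

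A small set of genes was on at one cold temperature and off at the other. With on taken as at least 10 RPKM in both libraries and off as below 1 RPKM in both, a rule chosen after the values were seen, 24 called genes were on at 11 °C and off at 13 °C and 42 were off at 11 °C and on at 13 °C. Of the 24, 13 were also below 1 RPKM in both 25 °C libraries, and of the 42, 11 were. Besides the genes named above, the nitrate reductase gene LOC_Os02g53130, the first enzyme of nitrate use, had 0.307 and 0.192 RPKM at 11 °C, against 19.5 and 23.8 RPKM at 13 °C, and 0.123 and 0.0534 RPKM at 25 °C. The nitrate transporter of the NRT1/PTR 6.3 kind (LOC_Os10g40600) was on at 11 °C, at 16.4 and 13.8 RPKM against 0.788 and 0.646 RPKM at 13 °C. The ubiquitin ligase gene EL5 (LOC_Os02g35329), an elicitor-responsive gene of rice, had 30.2 and 24.6 RPKM at 11 °C, against 0.689 and 0.534 RPKM at 13 °C. These 3 genes were picked from the set after their values were seen.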

How the data were processed

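RNA of 6 libraries (2 each at 11, 13 and 25 °C) was sequenced on an Illumina instrument after NEBNext Ultra library preparation, per the labels' protocols. The authors deposited 1 table of RPKM values per locus. TopHat2 2.0.12 is named in the submitters' processing notes. No source used here names the counting tool or the genome build, and coordinates are those of the table. Library totals were recovered first, from short LOC_Os loci with the span taken as gene length, as the totals that gave most whole reads. With these totals, a length that gave whole reads within 0.02 reads was found for 99% of tested genes.

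Loci written LOC_Os with at least 1 RPKM in at least 2 libraries were tested with limma 3.58.1 in R 4.3.3 on log2(RPKM + 1), with a mean-variance trend and 1 mean per temperature over all 6 libraries. A gene was called at a Benjamini-Hochberg adjusted p below 0.05. Fold changes on this scale understate those of low genes. An error after a log2 difference is limma's standard error. A permutation test of 2 against 2 samples cannot go below an exact p of 0.333. The script was tested on simulated data. Python 3.11.15, numpy 2.4.6, pandas 2.3.3 and matplotlib 3.10.9 were used for tables and figures.

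Named genes are the 10 largest log2 differences per direction among called, described genes with a mean of at least 10 RPKM in the higher group, the 5 largest RPKM differences per direction, the 2 largest called differences per direction in each list, and all clock and cold regulators. Members and lists were chosen with earlier results of these data known. Lists were matched on the table's descriptions or on locus identifiers, and are described by counts and medians, without a test. Alternatives were the pseudocount, the filter, quantile and TMM-type scaling, removal of organelle-type loci, a replicate block, a fit of 4 libraries, leaving out each library and, chosen after seeing the data, limma-voom on the recovered reads, which leaves out 189 mostly abundant genes (median of their mean level 331 RPKM) whose reads could not be recovered. The planned count tests were not run, because the deposited unit is RPKM, nor were promoter motifs described. The 23650 loci written in upper case were left out of the tests.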

Additional observations from a re-analysis of the deposited data

Results flagged for a closer look

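Loci whose identifier is written in upper case (LOC_OS) were outside the comparison, and drew attention because values above 0 were more frequent in the cold libraries than in the library at 25 °C. Of 23650 such loci, 890 were above 0 in replicate 1 at 11 °C and 781 in replicate 1 at 13 °C, against 730 in replicate 1 at 25 °C. The recovered totals of these libraries were 17020978, 16959400 and 15964798 reads, lowest at 25 °C, and the part of depth was not tested. The replicate 2 libraries had a value above 0 at 0 of these loci at all 3 temperatures, so the difference between temperatures rests on 1 library each and was not tested. Of these loci, 9 would have passed the filter on low values.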

How the results depend on the processing

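The counts of 3358 higher and 3536 lower genes lay within a factor of 1.5 under a pseudocount of 0.1, no filter, a filter at 5 RPKM, quantile and TMM-type scaling, removal of organelle-type loci, a fit of 4 libraries and limma-voom (2547 to 4378 higher, 2482 to 4402 lower). With a replicate block they were 5572 higher and 5786 lower. Deviations from the temperature means correlated between same-numbered libraries at 0.71 (11 and 13 °C), 0.61 (11 and 25 °C) and 0.67 (13 and 25 °C), and replicate 1 has more organelle-type reads and a lower total at all 3 temperatures. Of the upper-case loci, 2021 had a value above 0 in replicate 1 libraries and 0 in replicate 2 libraries. The 2 replicate numbers thus differed as sets, which the main fit does not model. With no label of a shared batch, what the numbers stand for cannot be settled here. Under the block 6 clock genes were higher and 2 lower of 11, 9 cold regulators higher and 2 lower of 17, 5 jasmonate repressors higher and 2 lower of 9, and 5 thiamine genes higher and 2 lower of 7. OsGI, OsPRR37, OsPRR73, OsDREB2A, OsDREB2B, OsICE2 and COLD1, not called without the block, were called with it, and the Rubisco small subunit gene LOC_Os12g17600 was not. Leaving out 1 library gave 1801 to 3387 higher and 1853 to 3611 lower genes, and moved the median of all genes to between -0.14 and 0.10; fewer samples were then fitted. Of 248 named genes that were called, 208 were called in all 6 of those fits. Among named genes the sign reversed in 6 cases, in 5 genes that were not called: over the fits that leave out 1 library, OsMYB3R-2 ranged from -0.03 to 0.46, SNAC2 from -0.04 to 0.24, OsDREB1G from -0.25 to 0.79, OsPRR95 from -0.07 to 0.37 and OsPRR59 from -0.17 to 0.44 (-0.14 without replicate 2 at 11 °C). The cause was not tested. Promoter motifs and the planned count tests were not run. Intervals from the recovered reads cover counting error only, and genes near 1 RPKM rest on few reads.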

Other observations

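The largest rise at 11 °C belonged to a locus without a description, chosen here after its values were seen. LOC_Os08g08690 had 446 and 804 RPKM at 11 °C, against 0.836 and 2.02 RPKM at 13 °C and 272 and 467 RPKM at 25 °C, a log2 difference of 7.99 ± 0.39. LOC_Os06g09600, also undescribed, had 0 and 0.526 RPKM at 11 °C, against 75.8 and 90.9 RPKM at 13 °C and 2.91 and 3.76 RPKM at 25 °C.

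Loci that share a description were called in the same or in opposite directions. Of 681 descriptions carried by at least 2 called loci, 286 held loci of both signs. Of 19417 pairs of neighbouring tested loci, both members were higher in 811, both were lower in 901, and 1 was higher and 1 lower in 927. Pairs of like sign were thus together more frequent than mixed pairs. The counts to be expected from the shares of all genes were not computed, for descriptions or for pairs. Among secondary metabolism genes, 19 of 89 phenylpropanoid and flavonoid enzymes were higher (21.3%) and 29 lower (32.6%). For 94 cytochromes P450 the counts were 16 higher (17%) and 23 lower (24.5%). All genes had 17.3% higher and 18.2% lower, and the transposable element proteins given below 29.7% and 8.11%. Leaving out 1 library at a time left 17 to 27 lower phenylpropanoid enzymes and 8 to 16 higher cytochromes P450. Of 74 transposable element proteins 22 were higher and 6 lower, with 6 to 19 higher when 1 library was left out.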
